A study of Rattus norvegicus with 75 samples.

Results

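The sodium pump (Na,K-ATPase) genes described here are the beta subunits Atp1b1 and Atp1b3 and the FXYD regulators Fxyd1, Fxyd2, Fxyd3, Fxyd4, Fxyd5 and Fxyd6, 8 genes of the 32754 in the table. They were taken by gene name, each name matched 1 row, and their values were followed through 75 RNA sequencing libraries. Male Sprague-Dawley rats weighing 120 to 160 g gave the kidney tubule segments, which were microdissected: 53 libraries are of cortical collecting duct (CCD) and 22 of cortical thick ascending limb (cTAL). Control rats ate plain food and lithium rats ate food with 40 mM lithium chloride per kg. CCD was taken at 12 h (3 control and 2 lithium libraries), 24 h (3 and 3), 36 h (3 and 3) and 72 h (17 and 19), and cTAL at 72 h (12 and 10). No group carried a genetic change. The series concerns the signalling behind the onset of nephrogenic diabetes insipidus under lithium, a state in which vasopressin no longer makes the collecting duct take up water.

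The sodium pump sits in the basolateral membrane of tubule cells, where it moves sodium out and potassium in and so drives salt uptake along the nephron. Its alpha subunit carries out the transport. A beta subunit is needed for the pump to fold and reach the membrane, and a small FXYD protein that crosses the membrane a single time binds to it and tunes its affinity for ions. Fxyd2 encodes the gamma subunit, which lowers the pump's affinity for sodium. Fxyd4 encodes the corticosteroid hormone-induced factor, which raises that affinity and is known from the collecting duct. Fxyd1 encodes phospholemman, a kinase target best known from heart and muscle, Fxyd5 encodes dysadherin, also known for its part in cell adhesion, and Fxyd6 encodes phosphohippolin. Lithium enters principal cells, the water and sodium absorbing cells of the duct, through the epithelial sodium channel, and the pump exports it poorly.

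The members that differed most between the segments or with lithium were Fxyd4, Fxyd6 and Fxyd1, so the 250 bases before their start sites are shown, from RefSeq on the GRCr8 assembly. The expression values were made on another build, Rnor_6.0, and these windows carry no measurement of their own. The Fxyd4 window is chr4:152786046-152786295 on the minus strand, the Fxyd6 window chr8:54575575-54575824 on the plus strand and the Fxyd1 window chr1:95418581-95418830 on the minus strand. Capitals mark the match to a searched motif.
Fxyd4: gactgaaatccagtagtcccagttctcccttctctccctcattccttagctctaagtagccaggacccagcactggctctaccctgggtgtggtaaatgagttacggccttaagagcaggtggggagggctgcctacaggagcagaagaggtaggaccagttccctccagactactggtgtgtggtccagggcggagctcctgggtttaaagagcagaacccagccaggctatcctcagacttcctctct
Fxyd6: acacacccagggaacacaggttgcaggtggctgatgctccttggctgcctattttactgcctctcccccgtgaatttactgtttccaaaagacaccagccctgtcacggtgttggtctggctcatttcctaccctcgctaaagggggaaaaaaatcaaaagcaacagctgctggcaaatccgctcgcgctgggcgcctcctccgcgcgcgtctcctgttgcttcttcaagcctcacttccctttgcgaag
Fxyd1: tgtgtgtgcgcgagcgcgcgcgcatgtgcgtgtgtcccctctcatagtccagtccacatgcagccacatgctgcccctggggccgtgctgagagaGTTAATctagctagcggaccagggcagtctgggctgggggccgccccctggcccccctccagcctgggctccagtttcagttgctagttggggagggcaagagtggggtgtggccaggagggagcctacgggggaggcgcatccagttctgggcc
Promoters were in the table for 5 of the 8 members, and those of Atp1b1, Fxyd2 and Fxyd3 were not used here. Short core motifs were searched on both strands of the 6 windows of these 5 genes. These were GTTAAT (bound by the HNF1 factors), AGAACA (corticoid receptors), CACGTG (E-box), TGANTCA (AP-1), TTNGCGC (E2F) and TATAAA. The only match was a GTTAAT in the Fxyd1 window, from 155 to 150 bases before the start. Of all 33469 windows of 250 bases, 6.45% held that motif, 17.5% AGAACA, 5.59% CACGTG, 6.34% TGANTCA, 4.87% TTNGCGC and 12.9% TATAAA. Guanine and cytosine made up 55.6% of the Fxyd4, 55.2% of the Fxyd6 and 66.8% of the Fxyd1 window, against a median of 51.2% over all windows. In the GRCr8 gene order Fxyd6 and Fxyd2 are neighbours on chromosome 8, and Fxyd5, Fxyd7 and Fxyd1 follow one another on chromosome 1.

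Values are TPM, the authors' length-corrected transcript share of a library, as deposited. Levels of different genes can therefore be set side by side, but read depth is unknown and no counting interval can be given. Between 10888 and 12411 genes reached 1 TPM in a library. Umod, the defining gene of the thick ascending limb, stood between 45255 and 79244 TPM in control cTAL and between 25.1 and 142 TPM in control CCD at 72 h, and Aqp2, the defining principal cell gene, was at 3434 TPM or more in CCD and at 9.07 TPM or less in cTAL in the same controls. Tubules are not pure cells: summed over 8 immune markers, control cTAL held 1544 to 4549 TPM, with 7 of the markers at a mean of 1 TPM or more, and control CCD at 72 h held 12.0 to 401 TPM, with 6. In such bulk samples, fewer cells of a type and less RNA per cell cannot be told apart. Nothing in the labels ties libraries to rats, so every p-value here reflects spread among libraries that may be partly or wholly technical. In addition, 6 genes that each stood clearly high or low, chosen after the data were seen, were used to split the libraries at 72 h into sets. Control and lithium libraries were split separately, into A to D of controls and E to H of lithium. Each of these 8 sets held CCD and cTAL libraries. Each of the 6 groups at 12, 24 and 36 h formed a single set. The labels do not name these sets, and whether they mark rats, runs or batches was not tested. Because libraries of a set may not be independent, each call below was also tried on the means of sets. Apart from this, 11 libraries of 3 groups (lithium CCD 16 to 19, control cTAL 9 to 12 and lithium cTAL 8 to 10) stood apart by 107 to 1250 TPM of AC095947.2, which was listed at 0 in the other 64.

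Across the 10 groups, 62 of the 80 member-by-group means reached 1 TPM. Fxyd2 was the most abundant member in every group, with group means from 1818 to 4831 TPM, and Atp1b1 came next in every group, with means from 1253 to 2115 TPM. Atp1b3 kept to a narrow band of 194 to 241 TPM in all 10 groups, and the ranges of neighbouring groups in its order overlapped throughout. Fxyd4 lay between 445 and 1013 TPM in CCD groups and at 1.12 TPM or less in cTAL groups. Fxyd6 showed the opposite layout, with 967 and 1145 TPM in the cTAL groups and 3.14 to 23.5 TPM in the CCD groups. Fxyd5 averaged 30.3 and 32.1 TPM in cTAL and 2.25 to 7.23 TPM in CCD. Fxyd1 was at 9.76 TPM or more in every cTAL library. In CCD it was listed at 0 in 25 of 53 libraries and did not pass 2.61 TPM. Fxyd3, which encodes another short FXYD protein and overlaps the nerve gene Lgi4 in the annotation, was listed at 0 in 63 of 75 libraries and reached 1 TPM in 2 of them, with 1.41 TPM at most. Because Hprt1, a gene that all cells use, is also listed at 0 in all 75 libraries, a 0 in this table says no more than that.

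**Figure D1:**
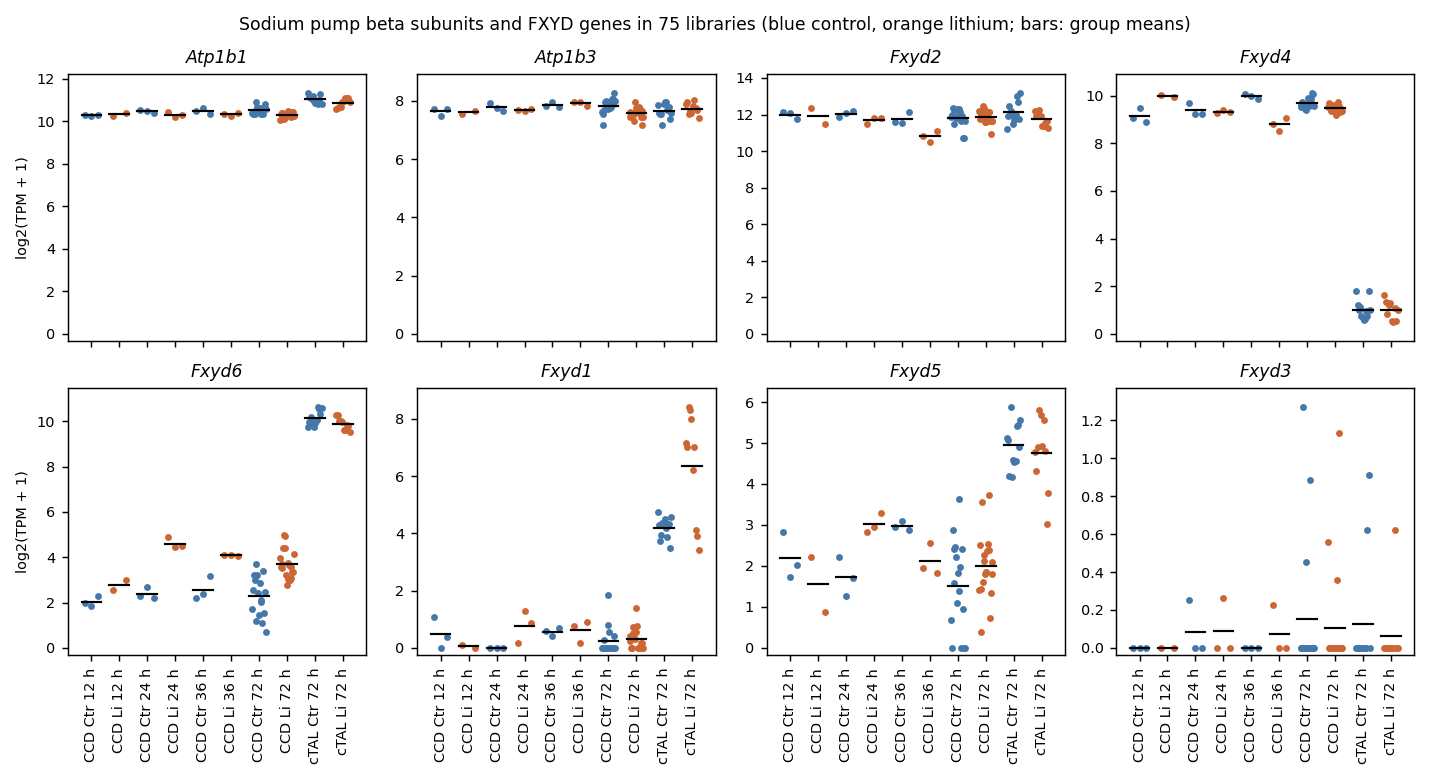
Level of each of the 8 genes in every library, as log2(TPM + 1), by group on the horizontal axis. Blue points are control and orange points lithium libraries, and black bars are means of the log2 values. Fxyd4 is high in CCD and Fxyd6 in cTAL, while Atp1b1, Atp1b3 and Fxyd2 are high in both segments.

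The FXYD make-up of each segment was a pair of genes. In control CCD at 72 h, Fxyd2 held 80.6% ± 7.97 (SD, n = 17) of the summed TPM of the 6 FXYD genes and Fxyd4 19.3% ± 7.98. In control cTAL, Fxyd2 held 78.9% ± 4.09 (n = 12) and Fxyd6 20.1% ± 3.85. So the gamma subunit gene took a like share in both, and the rest was Fxyd4 in one segment and Fxyd6 in the other. Over all CCD groups the mean Fxyd4 share lay between 12.2% and 22.6%. Of the beta subunit TPM, Atp1b1 took 86.6% ± 1.58 in control CCD and 91.0% ± 1.97 in control cTAL. These shares are descriptions and were not tested.

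**Figure D2:**
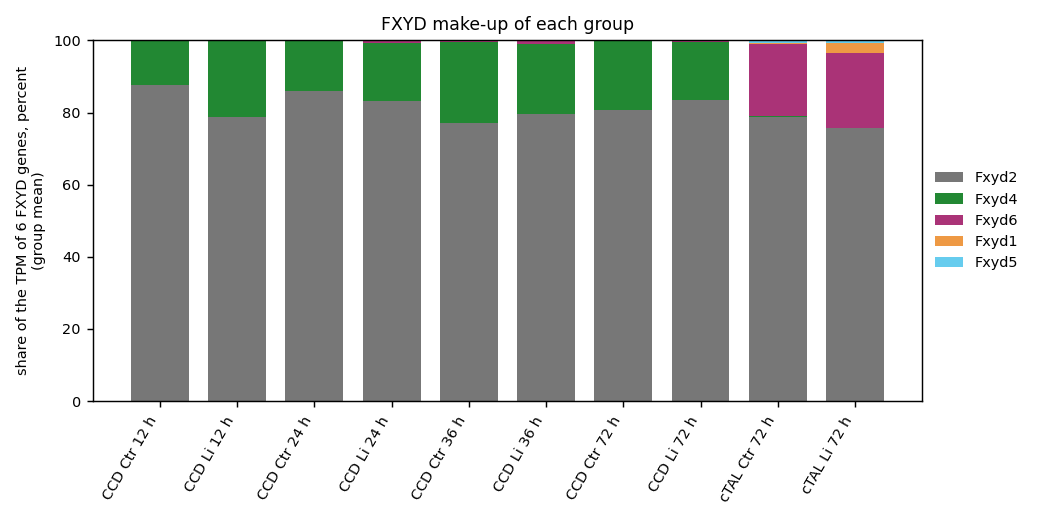
Mean share, in percent, of the summed TPM of the 6 FXYD genes taken by each gene in the 10 groups; Fxyd3 is too low to be drawn. Fxyd2 takes 75.6% or more in each group, and the remainder is Fxyd4 in CCD and mostly Fxyd6 in cTAL.

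How the segments differ without lithium was tested between control CCD and control cTAL at 72 h on log2(TPM + 1) with limma, and p-values were adjusted over all genes tested by Benjamini-Hochberg. Genes under an adjusted p of 0.05 count as called. All differences below are on this log2 scale, on which the pseudocount of 1 TPM shrinks the change of low genes. Of the 7 members with enough signal to be tested, 5 were called, 1 higher and 4 lower in CCD, where 68.4% of the 11925 genes tested were called, 49.8% higher and 18.6% lower. The members were picked with such differences known, and Fxyd1 and Fxyd5 passed the filter on low values only through cTAL and Fxyd4 only through CCD, so their count supports nothing beyond each gene's value.

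Fxyd4 ranged from 679 to 1091 TPM around a median of 797 TPM in the 17 control CCD libraries and from 0.50 to 2.48 TPM around 0.975 TPM in the 12 control cTAL libraries. All CCD libraries lay far above all cTAL libraries. The difference was 8.65 (SE 0.103). Fxyd4 passed the filter on low values only through CCD, so no p is given for it. Fxyd6 ranged from 0.63 to 11.8 TPM around 4.38 TPM in control CCD and from 849 to 1573 TPM around 1042 TPM in control cTAL. Again no library overlapped, in the opposite direction. The difference was -7.85 (SE 0.227, limma adjusted p = 2.29e-39). Within sets that hold both segments, Fxyd4 was higher in CCD by 7.83 to 9.09 and Fxyd6 differed by -8.67 to -7.11 in the 4 control sets.

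Fxyd1 ranged from 10.3 to 25.9 TPM around 18.8 TPM in control cTAL and from 0 to 2.61 TPM in control CCD, where 12 of 17 libraries listed it at 0. No library overlapped. The fitted difference of -3.97 is set by the pseudocount, since it was -6.62 with one of 0.1 TPM, and Fxyd1 was tested only because it is high in cTAL, so no p is given for it. Fxyd5 ranged from 17.2 to 57.6 TPM around 30.8 TPM in control cTAL and from 0 to 11.5 TPM around 2.02 TPM in control CCD, with no overlap. Its difference was -3.45 (SE 0.32), and lay between -4.55 and -2.92 over 11 alternatives. Fxyd5 also passed the filter on low values only through cTAL, so no p is given for it. The immune markers given above were higher in cTAL as well, and their part in the Fxyd5 difference was not tested. Atp1b1 ranged from 1292 to 1931 TPM around 1449 TPM in control CCD and from 1813 to 2553 TPM around 2071 TPM in control cTAL. Here 15 of 17 CCD libraries lay below every cTAL library, and the difference was -0.51 (SE 0.0626, limma adjusted p = 1.94e-10).

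Fxyd2 and Atp1b3 were not called. Fxyd2 ranged from 1656 to 5173 TPM around 3759 TPM in control CCD and from 2381 to 9161 TPM around 4030 TPM in control cTAL, with wide overlap, and differed by -0.30 (SE 0.164, limma adjusted p = 0.0973). Atp1b3 averaged 231 TPM ± 37.6 in CCD and 205 TPM ± 34.1 in cTAL, a difference of 0.17 (SE 0.0822, limma adjusted p = 0.0641) that was called in a joint fit of all 10 groups (limma adjusted p = 0.0456) and turned to -0.12 under the scaling described next. Rescaling all libraries by median-of-ratios size factors moved the median of all genes by -0.26 in this comparison and the share of higher genes among those called from 72.8% to 50.7%. Under it Fxyd2 was called, at -0.59 (limma adjusted p = 0.00749), and the Atp1b1 difference was -0.79. Leaving out set A or set C also called both, Fxyd2 at -0.47 and -0.52 (limma adjusted p = 0.014 and 0.0149) and Atp1b3 at 0.28 and 0.27 (limma adjusted p = 0.00154 and 0.0121). The 5 calls held under each alternative in which the gene was tested, the means of sets included; Fxyd1 did not pass the filter on low values without set B, C or D.

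Whether lithium changes the pump's subunits in the collecting duct was asked at each time against controls of the same time. The clearest change was a rise of Fxyd6, a gene of low level in control CCD, at 24, 36 and 72 h. Fxyd4 was higher at 12 h, not called at 24 h and lower at 36 and 72 h. Fxyd2 fell at 36 h, Fxyd5 rose at 24 h, and the beta subunits fell slightly at 72 h. At 12 h 1 of 6 members tested was called, and it rose, where 11.7% of 12016 genes were called, 7.96% higher and 3.78% lower. At 24 h 2 of 6 rose, where 25.7% of 11909 genes were called, 19.9% higher and 5.77% lower. At 36 h 1 of 6 rose and 2 fell, where 34.8% of 12069 genes were called, 25.5% higher and 9.28% lower. At 72 h 1 of 6 rose and 3 fell, where 37.3% of 11644 genes were called, 22% higher and 15.2% lower. The CCD controls at 72 h serve both this comparison and the segment comparison. Fxyd1 and Fxyd3 were too low in CCD to be tested.

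Fxyd6 stood at 2.96, 2.61 and 3.86 TPM in the control libraries at 12 h and at 4.86 and 6.94 TPM in the lithium libraries. The groups did not overlap, but the difference of 0.73 (SE 0.253) was not called (limma adjusted p = 0.0731). At 24 h it stood at 3.87, 5.41 and 3.56 TPM in controls and at 28.4, 20.7 and 21.4 TPM with lithium. Every lithium library was several times above every control. Fxyd6 rose by 2.22 (SE 0.226, limma adjusted p = 1.67e-06). At 36 h the control values were 3.54, 4.22 and 7.90 TPM and the lithium values 16.1, 16.0 and 15.9 TPM, again without overlap, and Fxyd6 rose by 1.51 (SE 0.226, limma adjusted p = 6.37e-05). At 72 h Fxyd6 ranged from 0.63 to 11.8 TPM around a median of 4.38 TPM in 17 controls and from 5.75 to 30.1 TPM around 11.0 TPM in 19 lithium libraries. Of the lithium libraries 8 lay above every control, and 11 controls lay below every lithium library. Fxyd6 rose by 1.44 at 72 h (SE 0.24, limma adjusted p = 5.88e-06). The filter on low values asked for 1 TPM or more in 17 libraries of this comparison. Fxyd6 reached that level in 16 of 17 controls and in all 19 lithium libraries, so controls alone did not pass it.

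The set means of Fxyd6 at 72 h were 5.58, 6.47, 3.6 and 3.54 TPM in control sets A to D and 16.4, 15.3, 8.39 and 11.6 TPM in lithium sets E to H, so no lithium set fell as low as a control set. On means of sets the call held at 72 h (limma adjusted p = 0.00269) and at 24 h (limma adjusted p = 0.0325) and was lost at 36 h (limma adjusted p = 0.101). In that fit each early group counts as 1 sample that is assumed to vary like the sets at 72 h. Fxyd6 is a cTAL gene, so thick ascending limb markers were read beside it. The summed list of 6 is mostly Kcnj1 in CCD, a channel of the duct itself (1041 to 1180 TPM with lithium at 24 h within a sum of 1108 to 1236 TPM). Umod, Cldn16 and Slc12a1 of this list are therefore given singly, and Cldn10 and Tmem207 are not. Of the 6 markers, 4 averaged 1 TPM or more in controls at 24 h and 3 with lithium. Slc12a1 averaged below 1 TPM in both groups, so a marker not given singly averaged lower with lithium. At 24 h Umod stood at 9.64 to 14.0 TPM in controls and 15.6 to 26.5 TPM with lithium, and Cldn16 at 17.2 to 22.2 TPM and 32.0 to 37.6 TPM, both higher with lithium like Fxyd6. Slc12a1 overlapped there, at 0.19 to 0.68 TPM in controls and 0.25 to 1.32 TPM with lithium. At 36 h Umod stood at 49.0 to 70.2 TPM in controls and 15.5 to 36.1 TPM with lithium, lower while Fxyd6 was higher. Cldn16 overlapped at 16.7 to 30.5 TPM and 17.7 to 20.0 TPM, and Slc12a1 at 0.29 to 12.3 TPM and 0.22 to 3.47 TPM. At 72 h Umod ranged from 25.1 to 142 TPM in controls and from 39.8 to 855 TPM with lithium. Cldn16 ranged from 15.2 to 29.2 TPM and from 18.8 to 36.7 TPM, and Slc12a1 from 0.65 to 14.5 TPM and from 1.48 to 26.4 TPM. The part of thick ascending limb RNA in the Fxyd6 result was not tested. Even with lithium, Fxyd6 held at most a mean of 0.717% of FXYD TPM in a CCD group.

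Fxyd4 stood at 534, 717 and 470 TPM in controls at 12 h and at 1037 and 988 TPM with lithium. Both lithium libraries lay above all 3 controls, and Fxyd4 rose by 0.84 (SE 0.169, limma adjusted p = 0.00357). At 24 h its values were 816, 597 and 597 TPM in controls and 617, 668 and 633 TPM with lithium, which overlapped (difference -0.05, SE 0.151, limma adjusted p = 0.839). At 36 h they were 1060, 1005 and 932 TPM in controls and 441, 365 and 530 TPM with lithium. All 3 lithium libraries were far below the controls. Fxyd4 fell by 1.18 at 36 h (SE 0.151, limma adjusted p = 1.2e-05). At 72 h it ranged from 679 to 1091 TPM around 797 TPM in controls and from 579 to 841 TPM around 721 TPM with lithium, with 7 of 19 lithium libraries below every control. Fxyd4 fell by 0.21 at 72 h (SE 0.0577, limma adjusted p = 0.00427).

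The lithium effect on Fxyd4 differed between times (moderated F = 28.2, limma adjusted p = 5.78e-08), in a test that called 8.43% of 14105 genes, and Fxyd4 was the 1 member of 8 called. Its level in controls also differed between times (moderated F = 13.0, limma adjusted p = 0.000144), where 15.4% of 12817 genes and 1 of 6 members were called. Controls averaged 574 TPM ± 128 at 12 h, 670 TPM ± 127 at 24 h, 999 TPM ± 63.9 at 36 h (n = 3 each) and 827 TPM ± 122 at 72 h (n = 17). The lithium groups went from 1013 TPM ± 35.0 (n = 2) through 639 TPM ± 26.3 and 445 TPM ± 82.8 (n = 3 each) to 713 TPM ± 69.2 (n = 19). On means of sets the fall at 36 h was still called (limma adjusted p = 0.00276). Those at 12 h (limma adjusted p = 0.178) and 72 h (limma adjusted p = 0.181) and the F tests (limma adjusted p = 0.0759 for lithium and 0.257 for controls) were not. Without set D, whose control CCD libraries averaged 930 TPM, the difference at 72 h was -0.14 (limma adjusted p = 0.0523), and the joint fit of all 10 groups lost the calls at 12 h (limma adjusted p = 0.0584) and 72 h (limma adjusted p = 0.0571). Both F values were lower in that fit, 13.2 and 6.11, and under median-of-ratios scaling, 17.9 and 7.73, and stayed called. Principal cell markers moved beside it: their sum of 6 genes was 16603 to 20314 TPM in controls and 8413 to 9188 TPM with lithium at 36 h, 17426 to 19157 TPM and 12620 to 14891 TPM at 12 h, and 9963 to 17126 TPM and 8550 to 12552 TPM at 72 h. At 12 h that sum was lower with lithium while Fxyd4 was higher, but single genes of the list went both ways. Hsd11b2 stood at 3714 to 3800 TPM in controls and 3982 to 4361 TPM with lithium, higher like Fxyd4. Scnn1b was lower, at 685 to 838 TPM and 498 to 584 TPM. Scnn1g overlapped, at 762 to 865 TPM and 574 to 786 TPM. Scnn1b and Hsd11b2 were themselves called lower with lithium at 72 h. The part of principal cells in the Fxyd4 result was not tested.

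**Figure D3:**
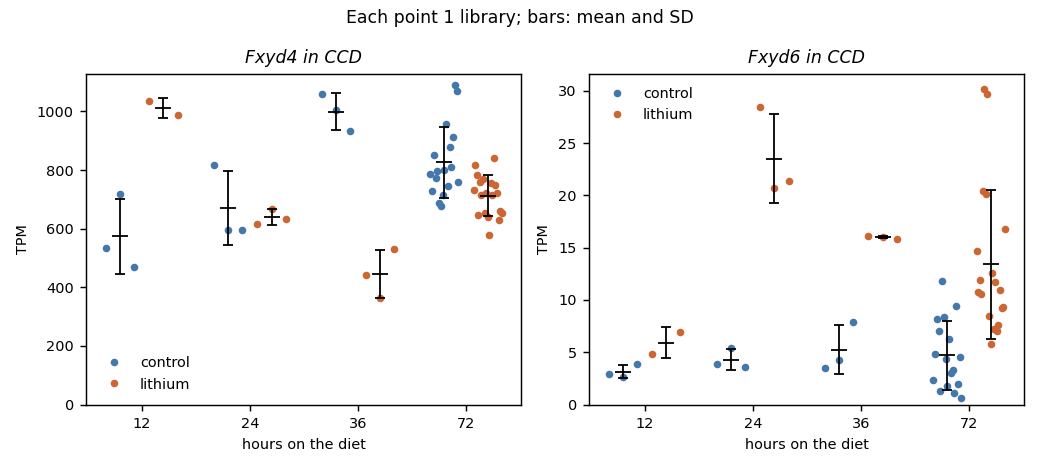
Fxyd4 (left) and Fxyd6 (right) in CCD, in TPM, against hours on the diet. Points are libraries, and bars give the mean and SD of each group. Lithium libraries of Fxyd4 lie above controls at 12 h and below them at 36 h, and those of Fxyd6 lie above controls at 12, 24 and 36 h.

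Fxyd2 stood at 3111, 2936 and 4543 TPM in controls at 36 h and at 1825, 1471 and 2158 TPM with lithium. The groups did not overlap, and Fxyd2 fell by 0.95 (SE 0.208, limma adjusted p = 0.00205), a call lost on means of sets (limma adjusted p = 0.216) and in a joint fit of all 10 groups (limma adjusted p = 0.0524). At 24 h its values were 3754, 4376 and 4661 TPM in controls and 2872, 3544 and 3567 TPM with lithium. These groups did not overlap either, but the difference of -0.36 (SE 0.208) was not called (limma adjusted p = 0.227). At 12 h the 2 lithium libraries stood far apart, at 5273 and 2834 TPM, around controls of 4537, 4379 and 3466 TPM (difference -0.08). At 72 h Fxyd2 ranged from 1656 to 5173 TPM around 3759 TPM in controls and from 1981 to 5711 TPM around 3894 TPM with lithium (difference 0.06), with nearly the same range. At 36 h the lithium and control groups had a like mean Fxyd4 share of FXYD TPM, 19.5% and 22.6%.

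Fxyd5 stood at 3.65, 1.39 and 2.25 TPM in controls at 24 h and at 6.13, 6.71 and 8.85 TPM with lithium. All 3 lithium libraries were higher. Fxyd5 rose by 1.30 (SE 0.338, limma adjusted p = 0.00917), and without the second control library the difference was 1.07 (limma adjusted p = 0.0508). It was not called on means of sets (limma adjusted p = 0.521) or in the joint fit of all 10 groups (limma adjusted p = 0.285). At 36 h the order was the other way, with 6.74, 7.57 and 6.29 TPM in controls and 2.87, 4.86 and 2.54 TPM with lithium, and the difference of -0.86 (SE 0.337) was not called (limma adjusted p = 0.0575), but was under median-of-ratios scaling (-0.97, limma adjusted p = 0.0347) and without the second lithium library (-1.08, limma adjusted p = 0.0401). At 12 h the values were 6.05, 2.34 and 3.05 TPM in controls and 3.66 and 0.85 TPM with lithium, which overlapped. The difference of -0.64 (SE 0.38) was not called, and without the first lithium library it was -1.30 (limma adjusted p = 0.0497). The sum of immune markers overlapped between lithium and control libraries at both times, at 131 to 290 TPM in controls and 127 to 311 TPM with lithium at 24 h, and at 195 to 369 TPM and 168 to 294 TPM at 36 h. Single markers of that list went both ways at 24 h. Ptprc, which marks all white blood cells, was at 0.18 to 0.87 TPM in controls and 1.14 to 1.34 TPM with lithium. Cd52 was listed at 0 in every lithium library there but not in every control. The part of white blood cells in the Fxyd5 result was not tested. At 72 h Fxyd5 ranged from 0 to 11.5 TPM in controls and 0.30 to 12.3 TPM with lithium and was not called (difference 0.49, limma adjusted p = 0.214).

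The beta subunits changed little. Atp1b1 ranged from 1292 to 1931 TPM around 1449 TPM in control CCD at 72 h and from 1072 to 1418 TPM around 1297 TPM with lithium. Of the lithium libraries 9 of 19 lay below every control, and Atp1b1 fell by 0.23 (SE 0.0506, limma adjusted p = 0.000414). Atp1b3 ranged from 143 to 306 TPM around 234 TPM in controls and from 144 to 247 TPM around 193 TPM with lithium, largely overlapping, and fell by 0.24 (SE 0.0708, limma adjusted p = 0.00613). Neither was called on means of sets (limma adjusted p = 0.0957 for Atp1b1 and 0.23 for Atp1b3), and without set D the Atp1b3 difference was -0.15 (limma adjusted p = 0.114). Atp1b1 stood at 1258, 1227 and 1274 TPM in controls and 1201 and 1364 TPM with lithium at 12 h, at 1478, 1422 and 1358 TPM and 1404, 1164 and 1262 TPM at 24 h, and at 1445, 1597 and 1298 TPM and 1312, 1204 and 1325 TPM at 36 h. The groups overlapped at each of these times. At 24 h Atp1b1 differed by -0.16 and Atp1b3 by -0.10, neither called. Median-of-ratios scaling moved the median of all genes by -0.15 at that time and by -0.16 at 36 h, and under it both were called at 24 h, at -0.32 (limma adjusted p = 0.00678) and -0.26 (limma adjusted p = 0.0293). The same scaling called Atp1b1 at 36 h (-0.34, limma adjusted p = 0.00318, against -0.17 without it), as did leaving out the third control library (-0.25, limma adjusted p = 0.0421). It moved the share of higher genes among those called from 67.8% to 50.6% at 12 h, 77.5% to 51.3% at 24 h and 73.3% to 48.3% at 36 h.

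**Figure D4:**
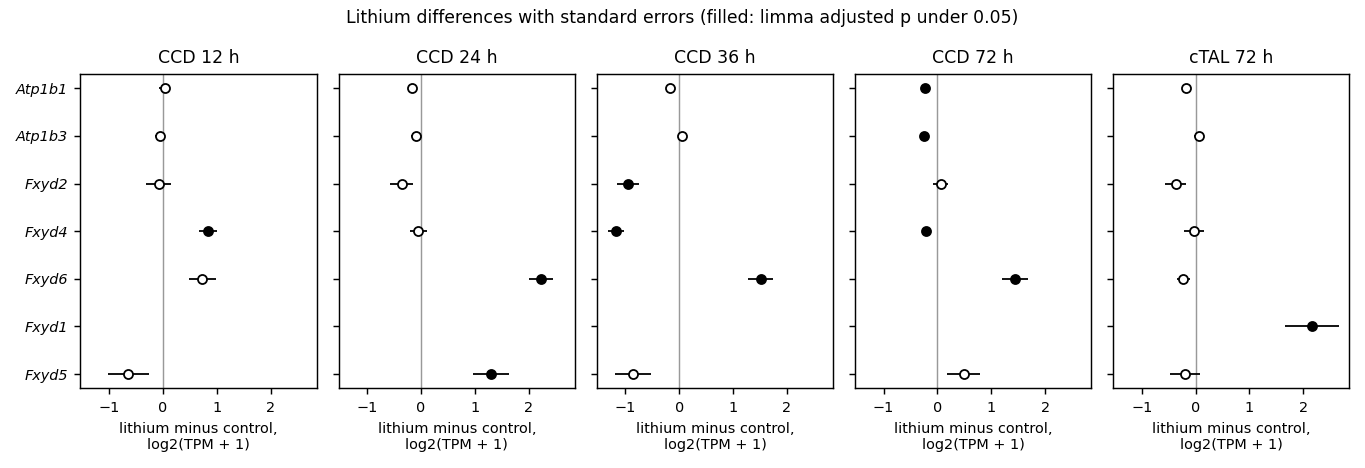
Lithium minus control, in log2(TPM + 1), for the 7 members tested in any of the 5 comparisons. Bars are standard errors and filled points were called at a limma adjusted p under 0.05. Fxyd6 lies to the right of 0 in CCD at all times, while Fxyd4 lies right at 12 h and left at 36 and 72 h, and Fxyd1 was tested in cTAL alone.

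In cTAL at 72 h the question was the same, and few genes were called: 0.701% of 11702 genes tested, 0.111% higher and 0.59% lower, and 1 of 7 members. That member was Fxyd1. Its 12 control libraries ranged from 10.3 to 25.9 TPM around 18.8 TPM. With lithium its values were 141, 128, 338, 319, 255, 73.9, 129, 16.6, 13.9 and 9.76 TPM. Lithium libraries 1 to 7 lay above every control, and 8 to 10 lay within or below the control range. Fxyd1 rose by 2.16 (SE 0.496, limma adjusted p = 0.036).

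The split followed the sets of libraries. Lithium set means were 134 TPM in E, 304 TPM in F, 101 TPM in G and 13.4 TPM in H, and control sets A to D averaged 25.9, 16.2, 19.5 and 16.4 TPM. Set H holds the lithium cTAL libraries that carry AC095947.2, and the controls that carry it, set D, averaged 16.4 TPM. Without set H the difference was 3.25 (limma adjusted p = 2.29e-08). The call was lost without set B, D, E or F (limma adjusted p = 0.0831, 0.268, 0.161 and 0.32), and without F the difference was 1.35. It was also lost with no filter on low values (limma adjusted p = 0.129) and on means of sets (limma adjusted p = 0.956). Markers of other cell types were read by set. Fibroblast and smooth muscle markers summed to 4.87 to 8.12 TPM in E, 5.87 to 30.2 TPM in F, 23.5 to 44.5 TPM in G, 6.14 to 11.7 TPM in H and 1.83 to 83.2 TPM in controls. Nerve and Schwann cell markers summed to 8.66 to 27.4 TPM with lithium and 12.2 to 25.6 TPM in controls. Immune markers summed to 1374 to 2170 TPM in H and 1375 to 4146 TPM in E, F and G, against 1544 to 4549 TPM in controls. The part of these cells in the Fxyd1 result was not tested. The share of Fxyd1 in FXYD TPM was 2.72% ± 2.05 (n = 10) with lithium and 0.345% ± 0.185 (n = 12) in controls.

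**Figure D5:**
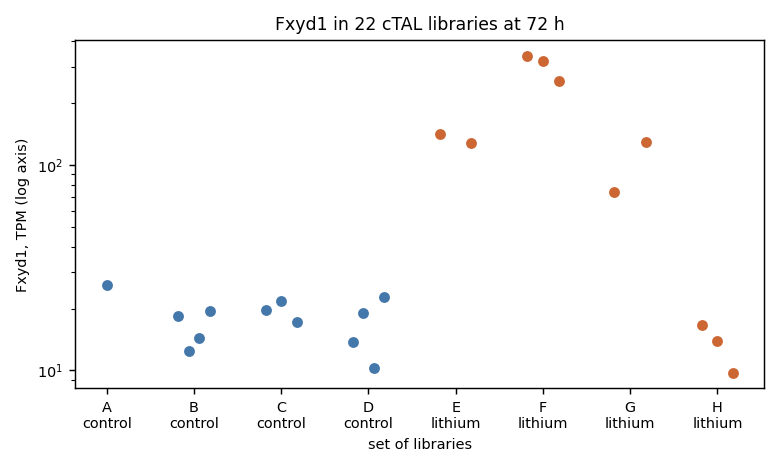
Fxyd1 in TPM, on a log axis, in the 22 cTAL libraries by set. Blue points are control and orange points lithium libraries. Sets E, F and G lie at 73.9 TPM or more, and set H lies with the controls.

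The other 6 members tested in cTAL were not called. Fxyd6 ranged from 849 to 1573 TPM around 1042 TPM in controls and from 742 to 1251 TPM around 960 TPM with lithium (difference -0.23, limma adjusted p = 0.421). Fxyd2 ranged from 2381 to 9161 TPM and from 2412 to 4784 TPM (difference -0.37, limma adjusted p = 0.449), with the 4 highest libraries all controls. Fxyd2 and Fxyd6 were both highest in control set D, at 6821 and 1462 TPM, against 2381 to 4535 TPM and 849 to 1036 TPM in sets A to C. Atp1b1 differed by -0.18, Atp1b3 by 0.07, Fxyd5 by -0.19 and Fxyd4 by -0.03.

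Whether lithium acted differently in the segments was tested as the effect in CCD minus the effect in cTAL at 72 h, where 15.3% of 13083 genes were called, 11.8% higher and 3.44% lower, and 2 of 7 members, 1 in each direction. Median-of-ratios scaling moved the share of higher genes among those called from 77.5% to 56.7%. The Fxyd6 effect was greater in CCD by 1.67 (SE 0.328, limma adjusted p = 9.16e-05), and this was called under all 15 alternatives, the means of sets included (limma adjusted p = 0.00943). The fitted Fxyd1 difference of -2.09 is no separate result: Fxyd1 was too low in CCD to be tested there and entered only through cTAL, so the value restates its cTAL difference with the sign turned. On means of sets it was not called (limma adjusted p = 0.273), nor with a pseudocount of 0.1 TPM (-1.71, limma adjusted p = 0.111). The Atp1b3 effect differed by -0.31 without a call (limma adjusted p = 0.0628), and it was called under median-of-ratios scaling (-0.42, limma adjusted p = 0.00855), in the joint fit of all 10 groups (limma adjusted p = 0.037) and without set A, C or F (limma adjusted p = 0.00349, 0.0183 and 0.0278). Atp1b1, Fxyd2, Fxyd4 and Fxyd5 differed by -0.05, 0.43, -0.18 and 0.68 and were not called.

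Other genes of the pump and of the pathways around it were read from lists that were chosen with earlier results known. At 72 h the pump subunit genes Atp1a4, Atp1b4 and Fxyd7 did not reach 1 TPM in any library, and Atp1b2 ranged from 0 to 6.65 TPM. Atp12a, the alpha subunit of a potassium pump related to the sodium pump, averaged 2.81 TPM ± 0.651 in controls and 30.8 TPM ± 8.51 with lithium at 24 h (n = 3 each). At 12, 36 and 72 h controls averaged 10.9, 14.1 and 15.1 TPM, so the controls at 24 h were the lowest. Lithium groups averaged 17.1, 13.9 and 6.89 TPM at those times. Atp12a rose at 24 h by 3.04 (limma adjusted p = 4.71e-09) and fell at 72 h by 1.03 (limma adjusted p = 0.00365). Neither call held on means of sets (limma adjusted p = 0.215 and 0.278), nor that at 72 h without set D (-0.77, limma adjusted p = 0.0556) or E (-0.73, limma adjusted p = 0.0718). Among 9 tested hormone and kinase regulators in CCD at 72 h, 4 fell and 1 rose, with a median of -0.25 against 0 for all genes tested. Of all genes tested in CCD at 72 h, 15.2% were called lower and 22% higher. Hsd11b2, which shields the mineralocorticoid receptor from cortisol-like steroids, fell by 0.33 (limma adjusted p = 3.26e-06), and Sgk1, an aldosterone-induced kinase, fell by 0.74 (limma adjusted p = 2.21e-05, and 0.0513 on means of sets). Nr3c2, the receptor itself, fell by 0.62 and Nedd4l, a ubiquitin ligase of the sodium channel, by 0.52 (limma adjusted p = 0.000949 and 0.00101). On means of sets these were not called (limma adjusted p = 0.0513 and 0.0698). Of 10 tested sodium entry and potassium or chloride exit genes, 7 fell and 1 rose, with a median of -0.49. The channel subunits Scnn1b and Scnn1a fell by 1.16 and 0.94 (limma adjusted p = 1.11e-14 and 6.71e-07), and Kcnj1, a potassium channel, by 0.65 (limma adjusted p = 7.6e-07). At 36 h 5 of 9 regulators fell and 2 rose, and 5 of 9 path genes fell and 1 rose, where 9.28% of all genes tested were called lower and 25.5% higher. At 24 h 1 regulator fell and 1 rose, and 3 path genes fell and 1 rose, where 5.77% of all genes were called lower and 19.9% higher. At 12 h 1 regulator fell and 3 rose, and 2 path genes fell, where 3.78% of all genes were called lower and 7.96% higher. In cTAL limma called 0 of 10 regulators, 0 of 11 path genes and 0 of 3 HNF1 genes, with 1, 2 and 1 at an unadjusted p under 0.05. Only 0.701% of all genes tested in cTAL were called. In control CCD against control cTAL 2 of 3 HNF1 genes were lower in CCD, where 68.4% of all genes tested were called.

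The genes whose levels ran most like each member were taken by Pearson r of log2(TPM + 1) over the 53 CCD or the 22 cTAL libraries, for members averaging at least 5 TPM there. These values are descriptions: libraries of a set, group or animal are not independent. In CCD, Fxyd6 ran most like Cks1b, which binds cyclin-dependent kinases (r = 0.793), Cenpw, a centromere protein (0.781), and Ns5atp9 (0.775). With group means removed these were 0.427, 0.441 and 0.222. Fxyd4 ran with Vps28 (0.686), Sh3bgrl3 (0.669) and Sh3yl1 (0.645) in CCD, and with group means removed at 0.408, 0.321 and 0.259. Atp1b3 ran with Car2, a carbonic anhydrase (0.829), Cd47 and P2ry14, at 0.755 or more within groups. Atp1b1 ran with Ctnnal1 (0.794), Acer2 and Nebl, and Fxyd2 with Sec61g (0.752), Cd63 and Lurap1l. In cTAL, Fxyd5 ran closest to the white blood cell genes Coro1a (0.940), Rac2 (0.921) and Slamf9 (0.893), of which Coro1a is on the immune marker list. Fxyd2 and Fxyd6, the chromosomal neighbours, ran closest to each other (0.883, and 0.865 within groups). Fxyd1 ran with Ccl27 (0.747) and Mgmt (0.746), Atp1b1 with Tmem259 (0.882), Capn15 and Sept9, and Atp1b3 with Lamp2 (0.820), Rnf13 and Lss.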

How the data were processed

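RNA was measured in 75 libraries of microdissected rat tubule. Per the labels' protocols, the SMARTer V4 kit served for cDNA, with 15 PCR cycles, and Nextera XT for libraries from 1 ng. The deposited values are TPM per gene, and per the submitters' processing notes STAR 2.5.2b, RSEM 1.2.31 and Rnor_6.0 were used. Strand is lost in such cDNA, so reads from a stretch that genes share cannot be assigned by strand. The spans of Atp1b1 and Nme7, and of Fxyd3 and Lgi4, overlap in GRCr8, and whether their exons do was not examined. TPM keeps no depth.

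The members and lists were chosen with earlier results of these data known. Genes were compared by limma-trend (limma 3.58.1, R 4.3.3) after taking log2(TPM + 1), for genes with at least 1 TPM in as many libraries as the smallest group compared. P-values are two-sided and adjusted by Benjamini-Hochberg, with a threshold of 0.05. CCD and cTAL at 72 h were fitted with their own groups, the 12, 24 and 36 h comparisons in a joint fit of 6 early groups, the segment comparisons in 1 of 4 groups at 72 h and the tests over time as F tests in 1 of 8 CCD groups. All 8 members were named, with the 3 genes most like each and up to 4 of smallest p per list. Some genes that this rule names are not reported here. The fits were tested on simulated data. Tables and figures were made with Python 3.11.15, numpy 2.4.6, pandas 2.3.3 and matplotlib 3.10.9.

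Alternatives were a pseudocount of 0.1 TPM, no filter, a mean of at least 5 TPM, median-of-ratios scaling, a joint fit of all 10 groups, the replicate number as a block, means of sets, and leaving out each early library or each set at 72 h.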

Additional observations from a re-analysis of the deposited data

Results flagged for a closer look

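The Fxyd6 response to lithium at 72 h differed between the segments by 1.67 on the log2(TPM + 1) scale (limma adjusted p = 9.16e-05), with a rise in CCD and no call in cTAL. The fitted difference for Fxyd1 was -2.09. Fxyd1 was too low in CCD to be tested, so this restates its cTAL values, with 7 of 10 lithium libraries above all 12 controls. It was not called on means of sets (limma adjusted p = 0.273) or with a pseudocount of 0.1 TPM (limma adjusted p = 0.111). The Fxyd4 response in CCD differed between 12, 24, 36 and 72 h (moderated F = 28.2, limma adjusted p = 5.78e-08), from higher at 12 h to lower at 36 h. On means of sets that F test was not called (limma adjusted p = 0.0759). The rise at 12 h was not called there (limma adjusted p = 0.178) or in the joint fit of all 10 groups (limma adjusted p = 0.0584). The fall at 36 h was called on means of sets (limma adjusted p = 0.00276). One lithium cTAL library held 0.54 TPM of Fxyd3 while the other 9 listed it at 0, a gap that sets a single library apart from its group. Only this group was of a size that was screened for such gaps. Fxyd3 reached 1.41 TPM in a control and 1.19 TPM in a lithium CCD library at 72 h, in groups that were not screened. The threshold used for such gaps is one that chance passes in about 1 of 20 groups of evenly scattered values, a rate that does not hold for a gene listed mostly at 0. A single library above 0 was also seen for Fxyd3 in 3 CCD groups, at 0.19, 0.20 and 0.17 TPM.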

How the results depend on the processing

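For single members and the other pathway genes tested again, 1195 values under an alternative kept their side of the threshold, 40 lost a call, 22 gained one, and no called value changed sign. The means of sets cut the counts most. On them, genes called fell from 4338 to 1759 in CCD at 72 h, from 1411 to 3 at 12 h, from 3059 to 313 at 24 h, from 4198 to 683 at 36 h, from 82 to 0 in cTAL (with 362 at an unadjusted p under 0.05 by limma), from 2000 to 485 for the lithium effect in CCD minus cTAL, from 1189 to 17 for lithium over time and from 1974 to 15 for controls over time. For control CCD against control cTAL, genes called fell from 8153 to 5702 of 11925. The fit on means of sets has far fewer samples. Members called were then 1 in CCD at 72 h, 0 at 12 h, 1 at 24 h, 1 at 36 h, 0 in cTAL, 1 for the lithium effect in CCD minus cTAL, 5 for control CCD against control cTAL and 0 in each test over time. Each 0 had 1 member at an unadjusted p under 0.05.

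The joint fit of all 10 groups called 150 genes at 12 h, 974 at 24 h, 1612 at 36 h, 524 in cTAL and 1288 for controls over time, with 0 members at 12 h (1 at an unadjusted p under 0.05) and 1 at 24 h. Median-of-ratios scaling called 4 of 6 members at 24 h, 2 of them higher, beside 3009 of 11909 genes. At 36 h it called 5 of 6 members, 1 of them higher, beside 4183 of 12069 genes. It moved the median of all genes by -0.15 and -0.16 at these times. A mean of at least 5 TPM left 1 member at 24 h and 53 genes in cTAL, no filter left 31 genes and 0 members in cTAL (2 at an unadjusted p under 0.05), and a pseudocount of 0.1 TPM left 1 member for the lithium effect in CCD minus cTAL. The cause of these changes was not tested.

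In cTAL 194 genes were called without set C, 1 without D, 23 without E, 1 without F and 223 without G, and members called were 0 without B, D, E or F (2 of 6 at an unadjusted p under 0.05 each time). In CCD at 72 h 2 members were called without set D, and 3636 to 4537 genes were called when any 1 set was left out. Leaving out each early library gave 1 to 2 members at 12 h, 1 to 2 at 24 h and 3 to 4 at 36 h. Genes called were then 1006 to 1343 at 12 h, 2196 to 2593 at 24 h and 3029 to 3833 at 36 h.

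Libraries with the same replicate number did not deviate together: their correlations ran from -0.224 to 0.382, and at most 2 numbers of any pair of groups correlated best with themselves. With the replicate number as a block, 1 gene and 0 members were called in cTAL (1 member at an unadjusted p under 0.05; Fxyd1 2.13, limma adjusted p = 0.141) and 3705 genes for controls over time. The block gave 4230 genes in CCD at 72 h, 1203 at 12 h, 2981 at 24 h, 4126 at 36 h, 8095 for control CCD against control cTAL, 1932 for the lithium effect in CCD minus cTAL and 1454 for lithium over time. Depth limits cannot be stated, since TPM holds none.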
